A study of Mus musculus with 12 samples.

Results

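The comparison described here is the tissue dependence of the survivin deletion effect: for each gene, the change with deletion in hepatocellular carcinoma minus the change with deletion in non-cancerous liver, called the difference of changes below. All 12 arrays of the series entered it, 3 in each of 4 groups taken from the sample titles, and 26506 genes were tested of the 34844 gene names on the array. A positive value means that the level with deletion, relative to its wild-type control, stood higher in tumour than in liver. It can come from a higher level in tumour, a lower level in liver, or both.

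All 4 groups were male mice of the 129/SV/B6 background that had received 50 mg/kg of the liver carcinogen N-nitrosodiethylamine at 2 weeks of age. Poly(IC), a double-stranded RNA mimic that induces interferon, was given 8 months later to every group, and tissue was taken 1 week after it. By then every group was 2 months past irradiation with a bone marrow transplant. Mx-liver and Mx-tumor are non-cancerous liver and carcinoma of Mxcre- mice, with wild-type survivin. Mx+liver and Mx+tumor are the same tissues of Mxcre+ mice, in which survivin was deleted. Mx-Cre is driven by an interferon-responsive promoter that is active after poly(IC) in hepatocytes and also in blood and other cells, so the deletion is not limited to hepatocytes, and the labels do not give the genotype of the transplanted marrow. The labels also do not say which arrays came from the same mouse, so the p-values measure the spread between these samples.

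Survivin, the product of Birc5, is a small protein of the inhibitor-of-apoptosis family. It joins Aurkb, Incenp and Cdca8 in the chromosomal passenger complex, which corrects chromosome attachment and drives cytokinesis in dividing cells. Adult liver is mostly quiescent whereas a carcinoma holds dividing cells, and liver lobules are zoned, with Wnt-dependent and detoxification genes highest around the central vein. Because the tissue was taken in bulk, fewer cells of a type and less RNA per cell cannot be told apart in any value below.

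Values are one-colour Agilent signals as log2 relative to the 75th percentile of the same array, so 0 is a bright probe and each unit a doubling. Replicate 1 of every group was hybridised on slide 1 and replicates 2 and 3 on slide 2. The 75th percentile signal was 1131 to 1767 on slide 1 and 3343 to 3906 on slide 2, and no probe was saturated. Probes above background were 47.7% on Mx-liver 1 and 68.5% to 83.0% on the others. All 14 hepatocyte markers were above background on every array, with list means of 4.79 to 5.46. Mx+liver 3 stood apart in carrying muscle and fat transcripts: its muscle marker mean was 0.47, against -4.33 to -2.67 on the others, and its adipocyte marker mean 3.02, against -0.92 to 0.11.

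The scanner files of Mx+liver 1 and Mx-tumor 1 do not match their own columns in the deposited value table. Each matched the other's column (r = 1, against 0.964 and 0.970 for its own), while the other 10 matched their own, so the arrays labelled Mx+liver 1 and Mx-tumor 1 may be exchanged in one of the sources. Both enter the difference of changes with the same sign and weight. The estimate is therefore the same under either assignment, and only its error and the separate changes in tumour and liver depend on it. Separate changes below follow the scanner files' labels unless the exchange is named.

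The deleted gene itself was read first, through 3 Birc5 probes on chromosome 11 (mm9). The probe at chr11:117711112-117711171 is shown because it gave the largest fall. The deleted exons are not given in the labels, so the position of the probes relative to the deletion is not known.
Birc5 probe 1: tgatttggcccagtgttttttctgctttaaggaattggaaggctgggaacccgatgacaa
On this probe the values were -0.23, -1.21 and -1.03 in Mx-liver, -0.33, -2.54 and -3.33 in Mx+liver, -2.03, -0.85 and 0.09 in Mx-tumor and -2.68, -2.56 and -2.93 in Mx+tumor. On slide 2 both Mx+ arrays lay below both Mx- arrays in each tissue. On slide 1 the array labelled Mx+liver 1 was level with Mx-liver 1, and the array labelled Mx-tumor 1 was low, near Mx+tumor 1, so Birc5 goes against both labels as the scanner files have them. The change with deletion was -1.79 in tumour and -1.24 in liver by the scanner labels, and -2.36 and -1.81 with the pair exchanged. The difference of changes was -0.55 (SE 1.00, unadjusted p = 0.596) on this probe, -0.11 (SE 0.81) on the second and -0.12 (SE 0.97) on the brightest. Under the scanner labels each of these differences was smaller than its error.

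No gene passed an adjusted p of 0.05 for the difference of changes in limma's moderated test with slide as a block: 0 of 26506 (0%), the smallest adjusted p being 0.912. At an unadjusted p of 0.05, 872 genes (3.29%) passed, fewer than the 1325 that a uniform distribution of p gives, with 225 above 0 (0.849%) and 647 below 0 (2.44%). On slide 2 alone, 0 of 26502 passed (smallest adjusted p 0.623) and 989 (3.73%) passed unadjusted, 575 above 0 (2.17%) and 414 below 0 (1.56%). The median SE of a gene was 0.38, and the median gene stood at -0.06, at -0.20 on slide 1 and at 0.01 on slide 2. Across genes, the difference of changes on slide 1 and slide 2 correlated at only r = 0.037, and replicates 2 and 3 of slide 2 at r = 0.025; genes are not independent replicates. All genes and groups below are therefore described with values that did not pass the correction.

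The excess of genes below 0 was not seen among bright probes. Of the 18573 genes above background on all 12 arrays, 52.7% stood above 0, against 43.6% of all genes tested (56.4% below), and 0.948% passed the unadjusted threshold above 0 against 0.813% below. The split also moved with the scaling: 25.8% of the genes past the unadjusted threshold were above 0 in the main scaling, 41.7% with quantile normalization, 47.8% with normexp background correction and 44.6% with both. With the pair exchanged 3.55% of all genes passed the unadjusted threshold. The change with deletion on its own passed it in 7.91% of genes in tumour and 11.8% in liver. The change in tumour and the change in liver themselves correlated across genes at r = 0.341, and at 0.287 with the pair exchanged.

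**Figure D1:**
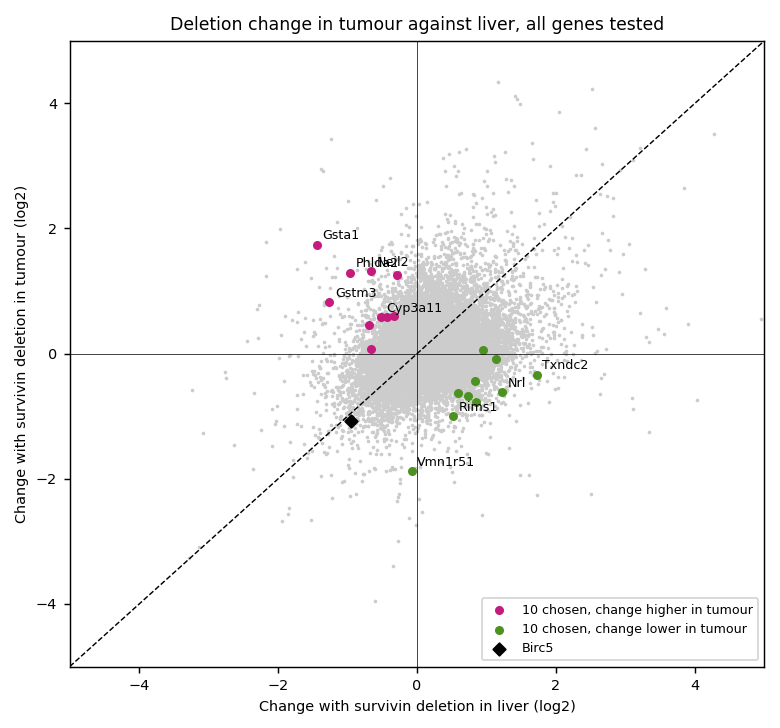
Change with survivin deletion in liver (x axis, log2) against the change in tumour (y axis, log2) for all 26506 genes tested (grey), with the dashed line where both are equal. The 10 genes chosen above the line (magenta) all have a positive change in tumour and a negative one in liver, the 10 below it (green) lie near or below 0 in tumour, and Birc5 (black diamond) lies close to the line.

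The genes of smallest p with the same sign on both slides were chosen, 10 in each direction. On the higher side were enzymes of detoxification and oxidative defence and a receptor of macrophages. Gstm3, a mu-class glutathione transferase, and Gsta1, of the alpha class, conjugate glutathione to electrophiles, Cyp3a11 is the main drug-metabolising cytochrome P450 of the 3A family in mouse liver, and Gpx7 is a glutathione peroxidase of the endoplasmic reticulum. Mertk is the receptor of macrophages for uptake of apoptotic cells. Neil2 is a DNA glycosylase of base excision repair and Phlda2 an imprinted growth-restraining gene.

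Gsta1 (probe at chr9:78090411-78090470, mm9) read 2.86, 2.46 and 4.77 in Mx-liver, 2.18, 1.18 and 2.42 in Mx+liver, 0.90, 0.48 and 0.18 in Mx-tumor and 2.72, 2.60 and 1.46 in Mx+tumor. By the scanner labels all 3 Mx+tumor arrays were above all 3 Mx-tumor arrays, and all 3 Mx+liver arrays below all 3 Mx-liver arrays. With the pair exchanged the liver groups stayed apart, but Mx-tumor 1 would read 2.18, above Mx+tumor 3 at 1.46. Its difference of changes was 3.18 (SE 0.85, unadjusted p = 0.00394), from 1.74 in tumour and -1.44 in liver, and 2.50 on slide 1 and 3.51 on slide 2. Its 60-base probe shares 46 bases with that of Gsta2, whose difference was 2.68 (unadjusted p = 0.0139), so these paralogues are not read fully apart.

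Gstm3 (probe at chr3:107766615-107766674) read 6.05, 4.41 and 5.44 in Mx-liver, 4.52, 3.91 and 3.68 in Mx+liver, 4.99, 3.20 and 3.08 in Mx-tumor and 5.33, 4.70 and 3.72 in Mx+tumor. Within each slide the Mx+liver arrays lay below the Mx-liver arrays and the Mx+tumor arrays above the Mx-tumor arrays. The difference of changes was 2.09 (SE 0.49, unadjusted p = 0.00169), from 0.82 in tumour and -1.26 in liver, and a second Gstm3 probe gave 1.40 (unadjusted p = 0.00815). Cyp3a11 (probe at chr5:146672058-146673925) read 4.98, 5.43 and 5.61 in Mx-liver, 4.18, 5.09 and 5.18 in Mx+liver, 3.52, 4.66 and 4.53 in Mx-tumor and 4.51, 5.12 and 4.82 in Mx+tumor. The tumour groups overlapped across slides, but on each slide Mx+tumor was above Mx-tumor and Mx+liver below Mx-liver. Its difference was 1.10 (SE 0.27, unadjusted p = 0.00208), and a second probe gave 0.78 (unadjusted p = 0.0233).

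Phlda2 (probe at chr7:150687464-150687523) had the smallest p on the higher side, and read -3.72, -2.72 and -3.09 in Mx-liver, -4.00, -4.42 and -4.00 in Mx+liver, -3.88, -4.13 and -3.52 in Mx-tumor and -2.97, -2.24 and -2.44 in Mx+tumor. The 3 Mx+tumor arrays were above all 3 Mx-tumor arrays, and the 3 Mx+liver arrays below all 3 Mx-liver arrays. The difference of changes was 2.26 (SE 0.38, unadjusted p = 0.000168). Neil2 (probe at chr14:63801282-63801341) read -1.47, -2.31 and -1.70 in Mx-liver, -2.29, -2.66 and -2.51 in Mx+liver, -2.87, -2.19 and -3.11 in Mx-tumor and -1.45, -1.16 and -1.61 in Mx+tumor. Its tumour groups did not overlap, and its liver groups overlapped narrowly, between Mx-liver 2 and Mx+liver 1. The difference was 1.97 (SE 0.41, unadjusted p = 0.000721).

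Mertk read 0.61, 0.39 and 0.24 in Mx-liver, -0.07, 0.13 and -0.12 in Mx+liver, -0.15, -0.42 and -0.52 in Mx-tumor and 0.30, 0.49 and -0.13 in Mx+tumor. By the scanner labels neither its liver groups nor its tumour groups overlapped, though Mx+tumor 3 lay close to Mx-tumor 1. With the pair exchanged the tumour groups overlapped, as Mx-tumor 1 would read -0.07, above Mx+tumor 3 at -0.13. The difference was 1.01 (SE 0.28, unadjusted p = 0.00471). Gpx7 (1.14), Cyp2d12, another cytochrome P450 (0.75), and Tssk6, a testis kinase near the dim end (0.93), completed the higher side. For Cyp2d12 the difference lay in liver, at -0.67 there and 0.08 in tumour.

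**Figure D2:**
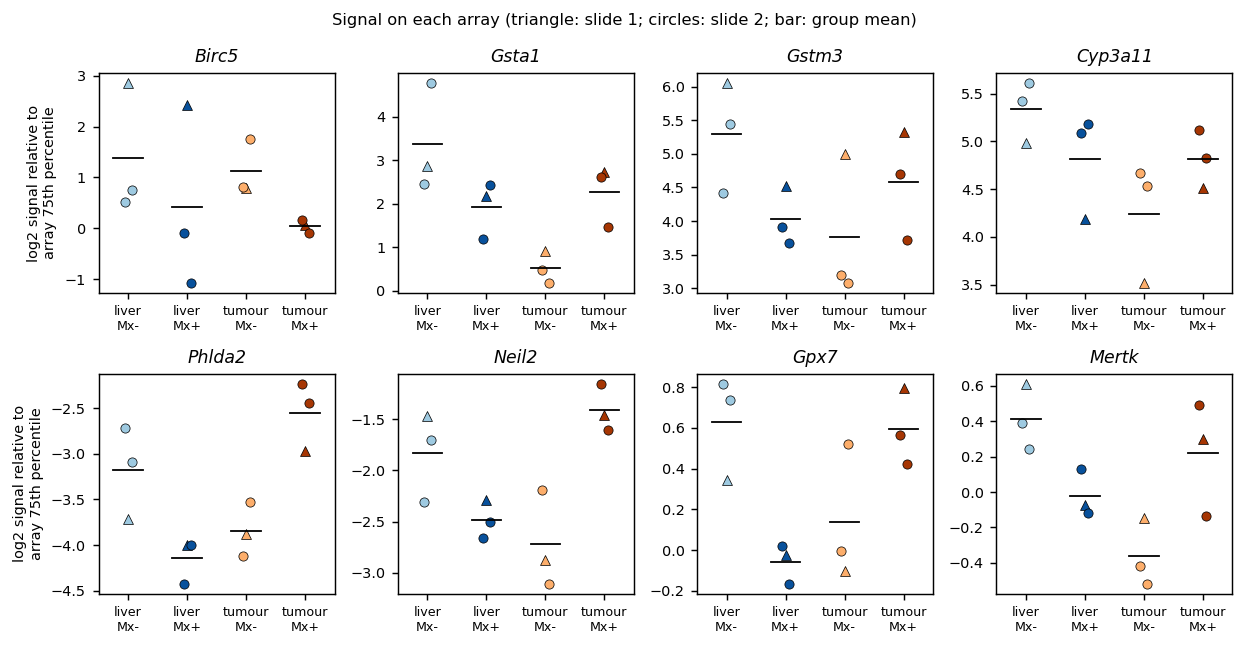
Log2 signal relative to the array's 75th percentile (y axis) on each of the 12 arrays for Birc5 (its brightest probe) and 7 genes of the higher side, by group and tissue as the scanner files label them. Triangles are slide 1, circles slide 2 and bars group means. In Gsta1, Gstm3, Phlda2 and Neil2 the Mx+ mean lies below the Mx- mean in liver and above it in tumour, and in Birc5 it lies below in both.

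The lower side held several genes best known from other tissues. They included the photoreceptor transcription factor Nrl (-1.84), the synaptic active-zone protein Rims1 (-1.52), the non-visual opsin Opn3 (-1.27), the sperm thioredoxin Txndc2 (-2.06), and the odorant and pheromone receptors Olfr1260 (-1.21) and Vmn1r51 (-1.80). Fam110b (-1.62), Popdc3 (-1.41), the B-cell receptor-like gene Fcrl5 (-0.90) and Tmem72 (-1.21) completed it. Most of these genes were dim, with Mx-liver means from -4.44 for Tmem72 to -0.80 for Fcrl5. All but Vmn1r51 and Fcrl5 were above background on only 2 Mx-liver arrays, but on all 3 arrays of every other group. On the higher side this held for Phlda2 and Tssk6 only. How far the missing signal in Mx-liver enters these values was not tested. A second Nrl probe, shifted by 8 bases, gave -0.75 (unadjusted p = 0.355), and a second Rims1 probe -2.70 (unadjusted p = 0.0115). Unadjusted p ran from 0.00313 for Fam110b to 0.00521 for Tmem72. Rims1, for example, read -2.87, -1.25 and -1.57 in Mx-liver, -1.32, -1.29 and -1.53 in Mx+liver, -1.04, -0.55 and -0.55 in Mx-tumor and -2.21, -1.58 and -1.36 in Mx+tumor, so that Mx+tumor was below Mx-tumor on both slides. Its liver groups overlapped on slide 2. Genes that missed only the requirement of signal above background in every group are given as levels. Cyp1a1, the classic target of the aryl hydrocarbon receptor, was above background on 2, 2, 0 and 3 arrays of Mx-liver, Mx+liver, Mx-tumor and Mx+tumor. It read -5.42, -3.43 and -2.31 in Mx-liver, -6.80, -5.32 and -3.09 in Mx+liver, -6.13, -8.28 and -6.80 in Mx-tumor and -3.84, -3.96 and -4.65 in Mx+tumor, lowest in Mx-tumor. Scn2a1, Evi2b and Tbc1d9 on the higher side, and Lhx8, Vmn1r214, Spata20 and Gnao1 on the lower, were of the same dim kind.

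Gene groups are described by their members' counts and median beside the same over all genes tested; no test compares a list with other genes. Of 57 lists, 28 kept the sign of their median on slide 1, on slide 2 and with each array left out in turn, 26 of them above 0 and 2 below. Of the 1294 distinct genes measured in the lists, 854 stood above 0, so values above 0 were common among listed genes. The 14 of largest median among these lists are described. Members above 0 are counted beside the 43.6% of all genes above 0, or 52.7% of those above background on all 12 arrays. Members passing the unadjusted threshold are counted beside the 0.849% of all genes that did so above 0 and the 2.44% below.

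**Figure D3:**
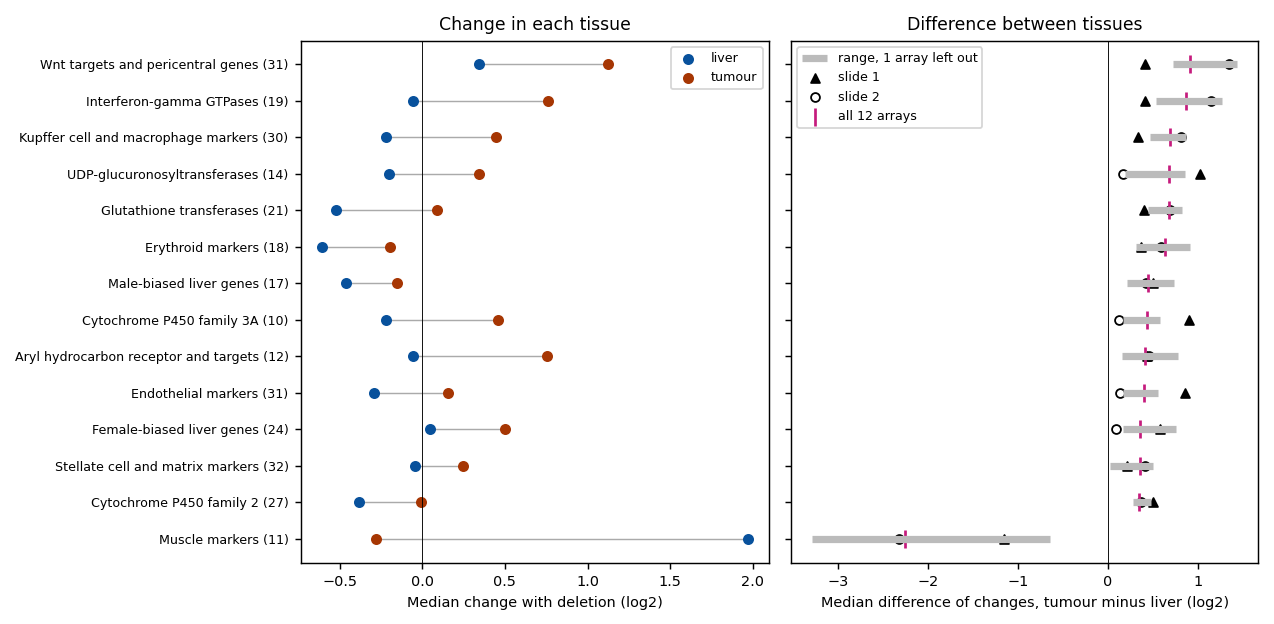
Left, the median change with deletion (log2) of each list in liver (blue) and in tumour (brown), with the number of members measured in brackets. Right, the median difference of changes on slide 1 (triangle), slide 2 (circle) and all 12 arrays (magenta bar), with grey lines spanning the values when 1 array was left out. Every list but the muscle markers lies above 0, and the muscle range reaches from -3.29 to -0.64.

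Glutathione transferases attach glutathione to drugs and lipid peroxidation products. All 21 listed genes were measured and above background on all 12 arrays, 19 stood above 0 and 2 below, and 7 passed the unadjusted threshold above 0 and none below. These were Gsta1, Gsta2, Gstm1 (0.66), Gstm3, Gstm4 (1.43), Gstm6 (0.97) and Gstp2 (0.55), which is 7 of 21 against 0.948% of the genes above background on all arrays. Gstm7 (-0.14) and Gstz1 (-0.05) were below 0. The list mean per array was 3.99, 3.56 and 4.23 in Mx-liver, 3.52, 3.18 and 3.47 in Mx+liver, 3.42, 2.92 and 2.94 in Mx-tumor and 3.58, 3.48 and 3.27 in Mx+tumor. Both slide 2 arrays of Mx-tumor were the lowest of the 12. The array labelled Mx-tumor 1, which may be exchanged with Mx+liver 1, was the lowest of slide 1. The liver groups did not overlap, and the tumour groups overlapped only through Mx-tumor 1. The median difference of changes was 0.68, from 0.09 in tumour and -0.52 in liver, and 0.40 on slide 1 and 0.69 on slide 2. Without Mx-liver 3 the median was 0.45. In 14 members the difference was above 0 on both slides, against 20.4% of all genes and 25.9% of those above background on all arrays. In 12 members the change was positive in tumour and negative in liver, against 15% and 18.5%, and in none the reverse, against 22.6% of all genes.

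UDP-glucuronosyltransferases, which conjugate bilirubin, steroids and drugs, had a median of 0.68 over 14 measured members, 12 of them above 0. Ugt2b34 (0.99, unadjusted p = 0.03) alone passed the unadjusted threshold. The median was 1.03 on slide 1 and 0.17 on slide 2, and 0.20 without Mx+tumor 1, and the replicate 2 arrays gave -0.26. The cytochrome P450 3A list, with its receptor genes, had a median of 0.44 over 10 members, 9 of them above 0, and Cyp3a11 passed. It was 0.13 on slide 2 and 0.16 without Mx+liver 1. Nr1i3, the xenobiotic receptor CAR, stood at 0.78 (SE 0.49). The cytochrome P450 2 family had a median of 0.35 over 27 members, 21 above 0, and Cyp2a4 (0.86), Cyp2c29 (0.73) and Cyp2c39 (0.87) passed. Under normexp correction with quantile normalization this median turned to -0.03.

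The aryl hydrocarbon receptor is a ligand-activated factor that induces Cyp1 genes. Of 12 measured members of its list, 9 were above background on all 12 arrays. Cyp1a2 and Gsta1 passed the unadjusted threshold above 0 and Aldh3a1 (-0.79) below, while Cyp1a1 was dim and is given by its levels above. Gsta1 is also counted in the glutathione transferase list and Cyp1a2 in the Wnt and pericentral list. The median was 0.41, and it was 0.15 without Mx+tumor 2 and 0.78 without Mx-liver 3. The replicate 2 arrays gave 1.23 and the replicate 3 arrays -0.12. Cyp1a2, an abundant pericentral enzyme, read 4.77, 3.77 and 4.52 in Mx-liver, 4.40, 3.03 and 4.17 in Mx+liver, 3.97, -0.94 and 0.70 in Mx-tumor and 4.52, 4.11 and 3.13 in Mx+tumor. The lowest values were Mx-tumor 2 and 3. The array labelled Mx-tumor 1, which may be exchanged with Mx+liver 1, was among the liver arrays, though the lowest of slide 1. Its difference was 3.16 (SE 1.08, unadjusted p = 0.0155), 0.92 on slide 1 and 4.29 on slide 2. Nqo1, also induced through the receptor, stood at 1.65 (SE 0.74, unadjusted p = 0.0502).

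Wnt targets and pericentral genes had the highest median among the lists described, 0.91, from 1.12 in tumour and 0.34 in liver (1.10 and 0.04 with the pair exchanged). All 31 listed genes were measured, 29 stood above 0 and 2 below (Znrf3, -0.67, and Slc1a4, -0.13), and 5 passed the unadjusted threshold, none below. Of the 31, 27 were above background on all 12 arrays. One of the 5 was Axin2, which was not. The list mean per array was 2.00, 1.09 and 1.43 in Mx-liver, 2.32, 1.36 and 1.88 in Mx+liver, 1.62, -0.38 and 0.10 in Mx-tumor and 2.28, 2.21 and 1.33 in Mx+tumor. Mx-tumor 2 and 3 were below every other array. The array labelled Mx-tumor 1, which may be exchanged with Mx+liver 1, was not, but it was the lowest of slide 1. The median was 0.42 on slide 1 and 1.34 on slide 2, and it ranged from 0.72 without Mx-tumor 2 to 1.44 without Mx-tumor 1, the array that may be exchanged. The list shares 1 gene, Gstm3, with the glutathione transferases.

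Glul, the glutamine synthetase of the innermost pericentral hepatocytes, read 2.17, 1.70 and 2.58 in Mx-liver, 2.32, 2.71 and 3.05 in Mx+liver, 1.36, 0.57 and 1.00 in Mx-tumor and 3.07, 3.71 and 2.49 in Mx+tumor. All Mx+tumor arrays were above all Mx-tumor arrays, and the liver groups overlapped. Its difference was 1.57 (SE 0.52, unadjusted p = 0.0129), nearly equal on slide 1 (1.57) and slide 2 (1.57). Lect2, a secreted hepatokine and Wnt target, stood at 1.59 (SE 0.56, unadjusted p = 0.0187). Axin2, the feedback inhibitor that reports Wnt signalling, read -5.31, -4.57 and -3.95 in Mx-liver, -3.44, -3.50 and -2.56 in Mx+liver, -4.74, -7.30 and -6.55 in Mx-tumor and -0.87, -1.57 and -3.95 in Mx+tumor, dim in Mx-tumor, where it was above background on 1 of 3 arrays. Its values were highest in Mx+tumor 1 and 2. Lgr5, the R-spondin receptor, read 0.30, -1.49 and -0.64 in Mx-liver, 1.74, -0.04 and -0.19 in Mx+liver, 0.17, -3.71 and -2.24 in Mx-tumor and 1.91, 2.32 and -0.85 in Mx+tumor. Its difference of 1.94 (SE 1.06, unadjusted p = 0.0995) did not pass. Oat, ornithine aminotransferase, read 3.22, 1.84 and 3.18 in Mx-liver, 3.05, 3.16 and 3.62 in Mx+liver, 3.01, -1.66 and -1.34 in Mx-tumor and 3.68, 2.41 and 2.91 in Mx+tumor, with only Mx-tumor 2 and 3 below 0. The separate list of Wnt ligands, receptors and signal components had a median of -0.20 over 34 members, with 13 above 0 and 21 below. That median was -0.24 on slide 1 and -0.07 on slide 2, and it turned to 0.04 without Mx+liver 3.

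**Figure D4:**
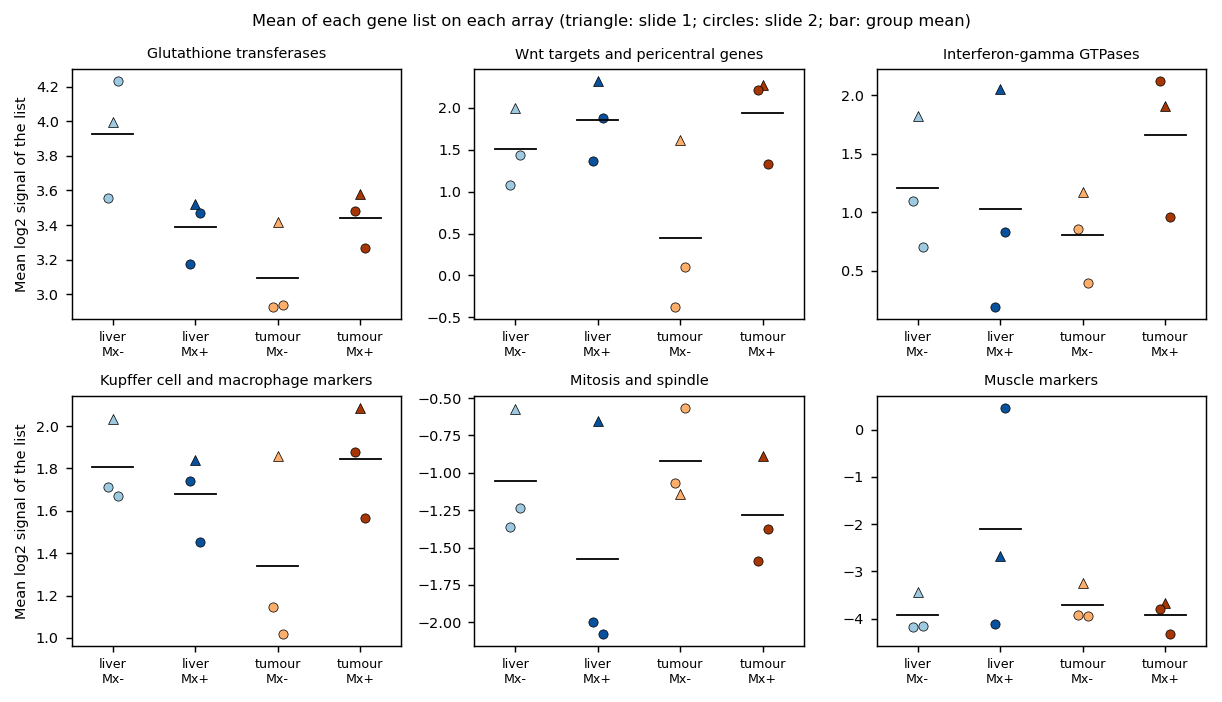
Mean log2 signal of 6 gene lists (y axis) on each array by group and tissue as the scanner files label them. Triangles are slide 1, circles slide 2 and bars group means. Mx-tumor 2 and 3 lie lowest in the glutathione transferase, Wnt and macrophage lists, and Mx+liver 3 alone lies high in the muscle list.

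Liver genes with a sex bias follow the pattern of growth hormone release. The male-biased list had a median of 0.45 over 17 members (13 above 0, none past the unadjusted threshold) and the female-biased list 0.36 over 24 members (17 above 0, with Cyp2a4 and Cyp2c39 past it). Cyp2a4 and Cyp2c39 are also counted in the cytochrome P450 2 family above. The female-biased median was 0.58 on slide 1 but 0.09 on slide 2, and it ran from 0.17 without Mx+liver 1 to 0.76 without Mx-liver 3. The male-biased median ran from 0.22 without Mx+tumor 1 to 0.74 without Mx+tumor 2. The male-biased mean was 0.62 on Mx+tumor 2, the lowest of the 12, and the female-biased mean 0.30 on Mx-liver 3, also the lowest.

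Interferon-gamma-induced GTPases act against intracellular pathogens, with guanylate-binding proteins (Gbp genes) and immunity-related GTPases (Irg genes) as the main families. All 19 measured members stood above 0, against 43.6% of all genes and 52.7% of those above background on all arrays, as these 19 were. Past the unadjusted threshold were 5, namely Gbp3, Gbp5, Gbp7, Gbp8 and Gbp11. Because poly(IC) induces interferon, all 4 groups had an interferon stimulus in common. The upstream bases of 3 of these genes are shown because they share the interferon-response letters. They are the 250 bases before the RefSeq start (GRCm38.p6, plus strand), Gbp3 at chr3:142559794-142560043, Gbp7 at chr3:142530086-142530335 and Gbp5 at chr3:142496684-142496933. Capitals mark, on either strand, GAAA repeated after any 2 bases, the core of the interferon-stimulated response element, and TTC followed after any 3 bases by GAA, the gamma-activated site.
Gbp3: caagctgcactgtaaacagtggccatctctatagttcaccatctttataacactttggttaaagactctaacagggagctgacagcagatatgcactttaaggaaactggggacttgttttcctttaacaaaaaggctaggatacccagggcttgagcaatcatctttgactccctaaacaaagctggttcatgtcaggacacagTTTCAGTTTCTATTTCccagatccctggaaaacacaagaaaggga
Gbp7: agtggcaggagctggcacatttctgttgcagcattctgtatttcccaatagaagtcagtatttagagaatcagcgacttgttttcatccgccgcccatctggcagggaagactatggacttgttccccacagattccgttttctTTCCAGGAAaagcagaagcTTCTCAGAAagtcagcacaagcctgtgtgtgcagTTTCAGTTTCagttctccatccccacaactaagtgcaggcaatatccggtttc
Gbp5: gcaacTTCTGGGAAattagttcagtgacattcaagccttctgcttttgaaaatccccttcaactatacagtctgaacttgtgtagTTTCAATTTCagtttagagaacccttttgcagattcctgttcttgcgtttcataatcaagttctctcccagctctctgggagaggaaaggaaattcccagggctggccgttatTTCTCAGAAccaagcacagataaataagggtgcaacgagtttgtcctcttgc
The GAAA pair was found in a 300-base window of 10 of the 11 members with a RefSeq window, against 3.99% of 27025 genes with such windows. The TTC and GAA pair was found in 6 of 11, against 9.55%. A gene was counted when any of its windows matched, and another RefSeq window of Gbp3 held neither match. Matches may overlap, and a match is a description of letters only.

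Gbp3 read 0.70, 0.66 and 0.52 in Mx-liver, 1.12, 0.34 and 1.01 in Mx+liver, -0.06, 0.45 and -0.11 in Mx-tumor and 1.60, 1.90 and 1.03 in Mx+tumor. By the scanner labels all Mx+tumor arrays were above all Mx-tumor arrays, while liver groups overlapped. With the pair exchanged Mx-tumor 1 would read 1.12, above Mx+tumor 3 at 1.03. Its difference was 1.22 (SE 0.40, unadjusted p = 0.0125), 1.24 on slide 1 and 1.21 on slide 2. Gbp11 read 2.39, 2.24 and 2.35 in Mx-liver, 1.58, 0.08 and 1.15 in Mx+liver, 2.36, 1.30 and 0.39 in Mx-tumor and 2.23, 2.27 and 1.21 in Mx+tumor. Here the larger change lay in liver, at -1.39 (SE 0.42). The change in tumour was 0.55 (SE 0.42), and the tumour groups overlapped. The difference was 1.94 (SE 0.59, unadjusted p = 0.00851). Gbp7 stood at 1.25, Gbp8 at 2.02 and Gbp5 at 0.65, and a second Gbp5 probe gave 0.36 (unadjusted p = 0.673). The list mean per array was 1.82, 1.09 and 0.70 in Mx-liver, 2.06, 0.19 and 0.83 in Mx+liver, 1.17, 0.85 and 0.39 in Mx-tumor and 1.90, 2.12 and 0.96 in Mx+tumor. Mx+tumor 2 was the highest of all, and the median without it went from 0.87 to 0.54. The replicate 2 arrays gave 1.88 and the replicate 3 arrays 0.35. Type I interferon-stimulated genes had a smaller median of 0.31 over 39 members, 33 of them above 0.

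Kupffer cells are the resident macrophages of liver. Of 30 measured members of the macrophage list, 28 stood above 0 and 2 below (Cd14, -0.34, and Mpeg1, -0.06), and the scavenger receptor Msr1 was among those past the unadjusted threshold. The list mean per array was 2.03, 1.71 and 1.67 in Mx-liver, 1.84, 1.74 and 1.45 in Mx+liver, 1.86, 1.14 and 1.02 in Mx-tumor and 2.09, 1.88 and 1.57 in Mx+tumor. Mx-tumor 2 and 3 were the lowest, and Mx-tumor 1 lay among the liver arrays. The median was 0.69, with 0.45 in tumour and -0.22 in liver, 0.33 on slide 1 and 0.81 on slide 2. In 16 members the change was positive in tumour and negative in liver, and in none the reverse; of all genes 15% did the former. Msr1 read -1.02, -0.39 and -0.57 in Mx-liver, -1.20, -0.46 and -0.56 in Mx+liver, -1.38, -1.51 and -1.25 in Mx-tumor and 0.04, -0.26 and -0.87 in Mx+tumor, with every Mx+tumor array above every Mx-tumor array and overlapping liver groups. Its difference was 1.09 (SE 0.40, unadjusted p = 0.0223). Emr1, the macrophage surface receptor that defines the lineage in mouse, stood at 0.69 (SE 0.35, unadjusted p = 0.0755). The macrophage colony-stimulating factor receptor Csf1r (0.68) and complement C1qa (0.66) did not pass.

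**Figure D5:**
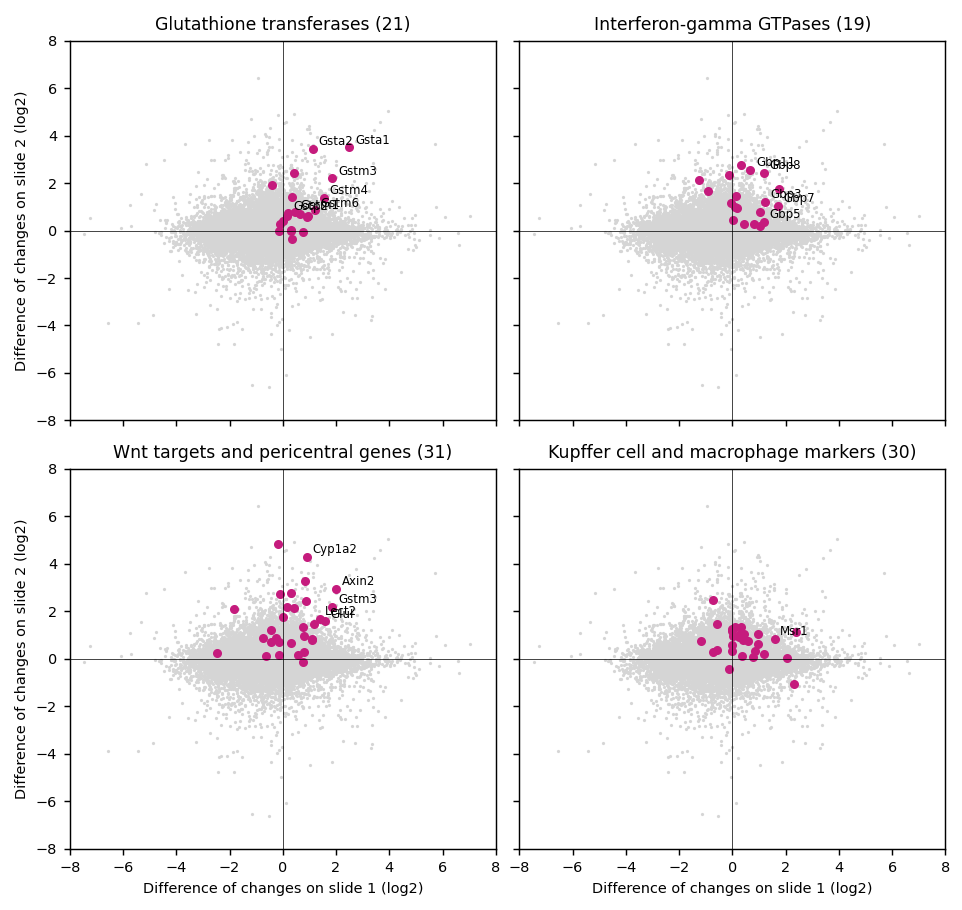
Difference of changes on slide 1 (x axis, log2) against slide 2 (y axis, log2) for all genes (grey) and the members of 4 lists (magenta), with members at an unadjusted p under 0.05 that the text describes named. In the upper right quadrant, where both slides are above 0, lie 14 of 21 glutathione transferases, 15 of 19 interferon-gamma GTPases, 18 of 31 Wnt and pericentral genes and 19 of 30 macrophage markers. The share there is 20.4% of all genes and 25.9% of those above background on all arrays.

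Endothelial markers had a median of 0.40 over 31 members, 27 above 0, with Fcgr2b (0.95) and the sinusoidal receptor Lyve1 (0.84) past the unadjusted threshold. The median was 0.86 on slide 1 but 0.13 on slide 2, 0.17 without Mx-tumor 1, and -0.30 on the replicate 3 arrays. Stellate cell and matrix markers had a median of 0.36 over 32 members, 25 above 0, and it was 0.03 without Mx+liver 2 and -0.58 on the replicate 3 arrays. Members stood on both sides, with Loxl2, a lysyl oxidase, at 1.14 (but 0.25 (unadjusted p = 0.548) and 0.56 (unadjusted p = 0.432) on its other probes) and Timp1, an inhibitor of matrix metalloproteinases, at -1.02 (unadjusted p = 0.0291). Timp1 read 0.36, -0.34 and -1.10 in Mx-liver, 2.24, 1.20 and 0.68 in Mx+liver, 2.41, 1.16 and 1.91 in Mx-tumor and 3.27, 1.90 and 2.45 in Mx+tumor. It was higher with deletion in liver by 1.73 and in tumour by 0.71. The 3 Mx-liver arrays were the lowest of the 12.

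Erythroid markers had a median of 0.64 over 18 members, 15 above 0, with 13 of the 18 above background on all 12 arrays. It was 0.31 without Mx+tumor 1, and the replicate 2 arrays gave 1.88 but the replicate 3 arrays -0.36. The median change was -0.60 in liver and -0.19 in tumour. Epor, the erythropoietin receptor, stood at 0.85 and passed the unadjusted threshold, and the spectrin gene Spnb1 passed in the other direction at -1.75. Irradiation and marrow transplantation were common to the groups. Muscle markers had a median of -2.26 over the 11 of 16 listed genes that were measured, and rested on Mx+liver 3. All 11 were above background on every Mx+liver array, but only 3 on all 12 arrays, so most passed the filter on low values through the group where they were high and their direction is not counted. Without that array it was -0.64, and replicate 2 gave 0.34. The adipocyte list, -0.95, became 0.02 without it.

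The lists closest to survivin's own function had smaller medians. The chromosomal passenger complex and its regulators had a median of 0.30 over 11 members, with changes of -0.15 in tumour and -0.50 in liver, and the mitosis and spindle list 0.19 over 43 members, with -0.35 and -0.58. Both medians turned below 0, to -0.06 and -0.26, without Mx-tumor 1. Of these lists, 8 of 11 and 38 of 43 members were above background on all 12 arrays. Aurkb, the kinase of the complex, was above background on 2, 2, 2 and 3 arrays of Mx-liver, Mx+liver, Mx-tumor and Mx+tumor. It read -3.82, -3.03 and -2.80 in Mx-liver, -6.34, -3.98 and -3.92 in Mx+liver, -6.49, -2.68 and -2.31 in Mx-tumor and -1.98, -3.24 and -2.61 in Mx+tumor. The lowest arrays were Mx+liver 1 and Mx-tumor 1, the pair that may be exchanged. The Aurkb difference was 2.74 (SE 1.13, unadjusted p = 0.0366), with 7.02 on slide 1, which holds that pair, and 0.60 on slide 2. No other member of the passenger list passed the unadjusted threshold on the probe that stood for its gene. Incenp stood at 0.36 on its brighter probe, which did not pass the unadjusted threshold, and at 0.94 (unadjusted p = 0.0148) on a second, which did. Cdca8 (0.13) did not pass. The mitosis list mean per array was -0.57, -1.36 and -1.24 in Mx-liver, -0.65, -2.00 and -2.08 in Mx+liver, -1.14, -1.07 and -0.56 in Mx-tumor and -0.89, -1.59 and -1.37 in Mx+tumor. On slide 2 both Mx+ arrays were below both Mx- arrays in each tissue, whereas on slide 1 the array labelled Mx+liver 1 was level with Mx-liver 1. Kif15, a spindle kinesin, had the smallest p of that list at 0.71 (SE 0.33, unadjusted p = 0.0584). Apoptosis regulators had a median of 0.13 over 35 members, 22 above 0 and none past the unadjusted threshold. Among them, the BH3-only gene Bmf stood at 0.77, the pro-apoptotic Bid at 0.41 and the death receptor Fas at 0.76, turning to -0.34 on slide 2.

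Across the 12 arrays the glutathione transferase, Wnt and macrophage lists had the same lowest arrays, Mx-tumor 2 and 3. Among the slide 1 arrays, Mx-tumor 1 was the lowest in the glutathione transferase (3.42) and Wnt (1.62) lists. In the macrophage list (1.86) Mx+liver 1 was lower, at 1.84. These are the 2 arrays that may be exchanged. With the pair exchanged, the lowest slide 1 array would be Mx+liver 1 in the glutathione transferase and Wnt lists. In the macrophage list it would be Mx-tumor 1. The lower macrophage markers thus stood on the same slide 2 arrays as the lower hepatocyte enzymes, and their part in the enzyme values was not tested.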

How the data were processed

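RNA of 12 tissue samples was hybridised to one-colour Agilent arrays. The authors deposited the scanner files, whose intensity values are processed signals after background subtraction per the file headers, made with version 10.7 of Agilent Feature Extraction according to the submitters' processing notes, and a value table of log2 values deposited by the authors, whose column medians run from -3.26 to -2.51 and 75th percentiles from 0.00303 to 0.00515. Set against the scanner values it proved to be of the same scale and centring. From the scanner files, log2 processed signals were set relative to each array's 75th percentile over 59305 noncontrol spots. Flagged spots were left out, spots of a probe averaged, and of 55681 probes 39136 were kept, each well above background in every array of 1 group or more. The brightest kept probe by mean represented a gene, giving 26506 genes, of which 311 lacked a value on an array. Names are those of the array's design, and 15733 matched a RefSeq symbol.

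Group means and slide were fitted with limma 3.58.1 in R 4.3.3 (7 residual and 2.77 prior degrees of freedom), with the difference of changes as a contrast and Benjamini-Hochberg adjustment. The fit was tested on simulated data. Same-numbered arrays correlated in their deviations from the group means (r 0.279 to 0.738 over 18 pairs, against -0.698 to 0.539 for others), but within slide 2 only at -0.0900 to 0.284. That range pools pairs of Mx+ with Mx- arrays and pairs of tissues, so it cannot tell whether any arrays share a mouse. Named were Birc5 and, per direction, the 10 genes of smallest unadjusted p with one sign on both slides and signal above background on 2 arrays of every group, with up to 4 dim genes given by levels; clone-like names were left out. Per list, up to 4 members were named by the same order; others named were chosen after their values were seen. Some genes that these rules name are not reported here. The comparison, the gene lists and the rule were chosen with earlier results of these data known. Alternatives were other scalings, filters, blocks, variances, array weights, the value table and left-out arrays.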

Additional observations from a re-analysis of the deposited data

How the results depend on the processing

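No gene passed an adjusted p of 0.05 for the difference of changes under any of the alternatives to the fit (slide 2 alone with an array left out is given below), including the requirement of a size over 1. Numbers of genes at an unadjusted p of 0.05 moved (225 above 0 and 647 below as reported). They were 64 and 85 without the slide block, 575 and 414 on slide 2 alone, 338 and 423 with trended robust variances, and 595 above 0 with array weights. Those below 0 were 223 without both arrays in doubt (Mx+liver 1 and Mx-tumor 1), 365 with quantile normalization, 316 with normexp, 330 with normexp and quantile, 217 for genes above background on all arrays, and 356 without Mx-liver 1 and Mx+liver 3, an alternative chosen after seeing the data. With single arrays left out they ranged from 177 (without Mx-tumor 3) to 476 (without Mx+tumor 1) above 0, and from 368 (without Mx-liver 1) to 1296 (without Mx-liver 3) below. Other arrays that moved them by over 1.5 times were Mx+tumor 3 (386 above 0), Mx+liver 1 (380 below) and Mx-tumor 1 (397 below). Within the tissues, no gene passed as reported, 1 in tumour and 1 in liver did on slide 2 alone, 2 in tumour without both arrays in doubt, 266 in liver with array weights, and 0 to 2 in tumour (2 without Mx-tumor 1) and 0 to 2 in liver (2 without Mx-liver 1 or Mx+liver 2) with single arrays left out. On slide 2 alone 0 to 2 genes passed for the difference when an array was left out (2 without Mx+tumor 2). The cause of these and the following shifts was not tested.

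Replicate numbers pair the arrays through the slide. With the replicate block in place of the slide block, 0 genes passed and 222 above 0 and 580 below passed unadjusted, and no call changed.

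The Birc5 difference was -1.34 without Mx-liver 1 and Mx+liver 3. With single arrays left out it ranged from -0.86 (without Mx-tumor 1) to 0.69 (without Mx+liver 1), being also 0.40, 0.13 and 0.43 without Mx+tumor 1, Mx-liver 2 and Mx-tumor 3. Some genes turned sign. On slide 2, and without both arrays in doubt, Fas stood at -0.34, Cyp3a13 at -0.16 and Pttg1 at -0.044. Cyp2u1 stood at -0.027 with normexp and quantile, Gnao1 at 0.91 without the filter and Gsg2 at -0.086 without Mx-liver 1 and Mx+liver 3. With single arrays left out Bub1 ranged from -0.021 (without Mx-tumor 1) to 0.96 and Pttg1 from -0.025 (without Mx+tumor 1) to 0.84. Of list medians under the alternatives, 434 kept within the spread of the replicates and 25 did not. The number of arrays, 3 a group, limits the precision, as do the low share of probes above background on Mx-liver 1 and the muscle and fat transcripts of Mx+liver 3.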

Other observations

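Several lists of smaller median kept its sign on both slides and with each array left out. Type I interferon-stimulated genes stood at 0.31 over 39 members, DNA replication and S phase genes at 0.25 over 33, targets of the oxidative stress factor NRF2 at 0.24 over 30 (25 above 0, none past an unadjusted p of 0.05) and MHC class I with peptide loading at 0.21 over 19 (17 above 0). General hepatocyte lists did so too, with hepatocyte defining markers at 0.24 (10 of 14 above 0) and fatty acid oxidation at 0.23 (25 of 35). Organic ion transporters stood at 0.21, bile acid genes at 0.19 and the growth hormone axis at 0.17. The respiratory chain stood at 0.16 (26 of 37 above 0), coagulation and complement at 0.13 (30 of 39) and apolipoproteins at 0.12 (21 of 29). Cholangiocyte markers, of the bile duct lining, stood at -0.15 over 20.

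Some immune cell lists had opposite signs on the slides. T and NK cell markers stood at -0.62 on slide 1 and 1.15 on slide 2, T-cell checkpoint genes at -0.49 and 0.91, MHC class II genes at -0.15 and 0.96, and neutrophil and granulocyte precursor markers at -0.39 and 0.94. Fatty acid synthesis (0.44 and -0.46) and BMP, Id and iron genes (0.55 and -0.42) were above 0 on slide 1 and below it on slide 2. Slide 1 holds the pair of arrays that may be exchanged, but the estimate does not depend on that assignment.

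The letters GCGTG, the core bound by the aryl hydrocarbon receptor, were found on either strand in 5 of the 8 members of its list with a RefSeq promoter window, against 35.2% of all genes with such windows. TGAC followed after any 3 bases by GC, the core of the NRF2 element, was found in 11 of 25 NRF2 targets and 4 of 19 glutathione transferases, against 12.4% of all windows.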
